A study of Mus musculus with 20 samples.

Results

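The transcripts described here are 37 genes of protein folding stress, which the endoplasmic reticulum (ER) and the cytosol answer with separate programs. The members were chosen by gene symbol: of all probe sets listed in the platform annotation with a member's symbol as their only symbol, the probe set of highest average signal across all 20 arrays was taken. All 37 were measured, out of 18193 genes with a probe set. All 37 lay above each array's own 25th percentile on all 20 arrays, so all 37 were among the 16054 genes tested. They fall into 16 ER chaperones and folding enzymes, 6 genes of ER-associated degradation, 3 regulators of the IRE1-XBP1 and ATF6 branches, 5 genes of the PERK-ATF4 branch and 7 cytosolic heat shock genes.

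The livers came from male CD1 mice, an outbred stock, whose age was not given in the sources used here and which carried no stated allele. There were 4 groups of 5 mice. The PB groups received phenobarbital sodium at 80 mg/kg/day by mouth for 28 or for 90 days, in 10 mL/kg of solution. The CMC groups received the 0.5% methylcellulose 15 vehicle alone, without phenobarbital, over the same 28 or 90 days. The left lateral lobe was taken on the day after the last dose, and each mouse gave 1 biotin-labelled Affymetrix 3' array. Phenobarbital is a sedative that activates the constitutive androstane receptor in hepatocytes and enlarges their smooth ER. Values below are log2 intensities, differences are PB minus CMC on that scale with the standard error of the fit, and n = 5 mice per group. Each p-value rests on the variation among separate mice. In tissue RNA, fewer cells of a type and less RNA per cell cannot be told apart.

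Proteins that enter the ER are folded by chaperones such as BiP, the product of Hspa5, and by disulfide isomerases. When unfolded protein accumulates, the sensors IRE1, ATF6 and PERK are released: IRE1 splices Xbp1 mRNA, ATF6 is cut to an active factor, and both raise chaperones and the degradation machinery through ER stress elements in promoters. PERK slows translation and favours ATF4, which raises Ddit3 (CHOP) and Trib3. In the cytosol, misfolded protein frees the factor HSF1, which binds heat shock elements and raises Hspa1a, Hspa1b, Hsph1 and Dnajb1. Hepatocytes secrete most plasma proteins and therefore carry a large ER.

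Cyp2b10, the classic target gene of phenobarbital in mouse liver, was higher by 4.90 ± 0.62 (SE) at 28 days and by 5.88 ± 0.62 at 90 days (limma, adjusted p = 0.000572 and 2.79e-05). On the first principal component of all genes, which held 55.6% of the variance, 2 PB arrays stood apart: the 28-day replicate 5 scored -107.9 and the 90-day replicate 3 scored -65.2, where the nearest other array scored -39.8. Hepatocyte and housekeeping genes moved along the same axis. In these 2 arrays Apob, the main apolipoprotein of secreted lipoproteins, stood at 8.32 and 8.98, where CMC livers spanned 11.15 to 12.44, and the hepatocyte factor Hnf4a at 9.64 and 10.71 (CMC 11.16 to 13.07). Actb, beta-actin, stood at 10.93 and 12.09 (CMC 12.75 to 13.79), and Hprt, a purine salvage enzyme, at 11.77 and 11.45 (CMC 9.85 to 11.40). Over whole groups Apob differed by -0.86 ± 0.63 and -0.94 ± 0.63 (limma adjusted p = 1 and 0.816). The log2 of the summed signal of the 7 hepatocyte markers measured of 8 listed was 16.78 to 17.27 over all livers, a sum set mainly by Alb, Ttr and Apoa1. The part of these shifts in the results below was not tested.

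No member passed an adjusted p of 0.05 in either comparison of phenobarbital with vehicle. After 28 days 0 of 37 members were called (limma, Benjamini-Hochberg), against 8 of 16054 genes, 0.0498%. After 90 days 0 of 37 were called, against 23 genes, 0.143%. Most members had a lower mean in treated livers. These were 31 of 37 at 28 days, with a median difference of -0.28, and 30 of 37 at 90 days, with a median of -0.41. Many members varied together between livers, as given below. Counts of members here and below are therefore not counts of independent results. Over all genes tested the medians were 0.00 and 0.03, and 8096 and 7031 of 16054 genes were lower. Without the 2 arrays apart 24 of 37 members were lower at 28 days, with a median of -0.16, and 32 of 37 at 90 days, with a median of -0.36, against 7214 and 7785 of all genes. At an unadjusted p under 0.05, 1 member was lower at 28 days (Sdf2l1) and 3 at 90 days (Pdia3, Herpud1 and Hspb1), with 0 higher at either time. Over all genes 1.03% and 1.38% were lower at that level and 1.83% and 3.15% higher. Centring each array on its 75th percentile left 28 and 27 members lower, and cyclic loess 30 and 29.

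**Figure D1:**
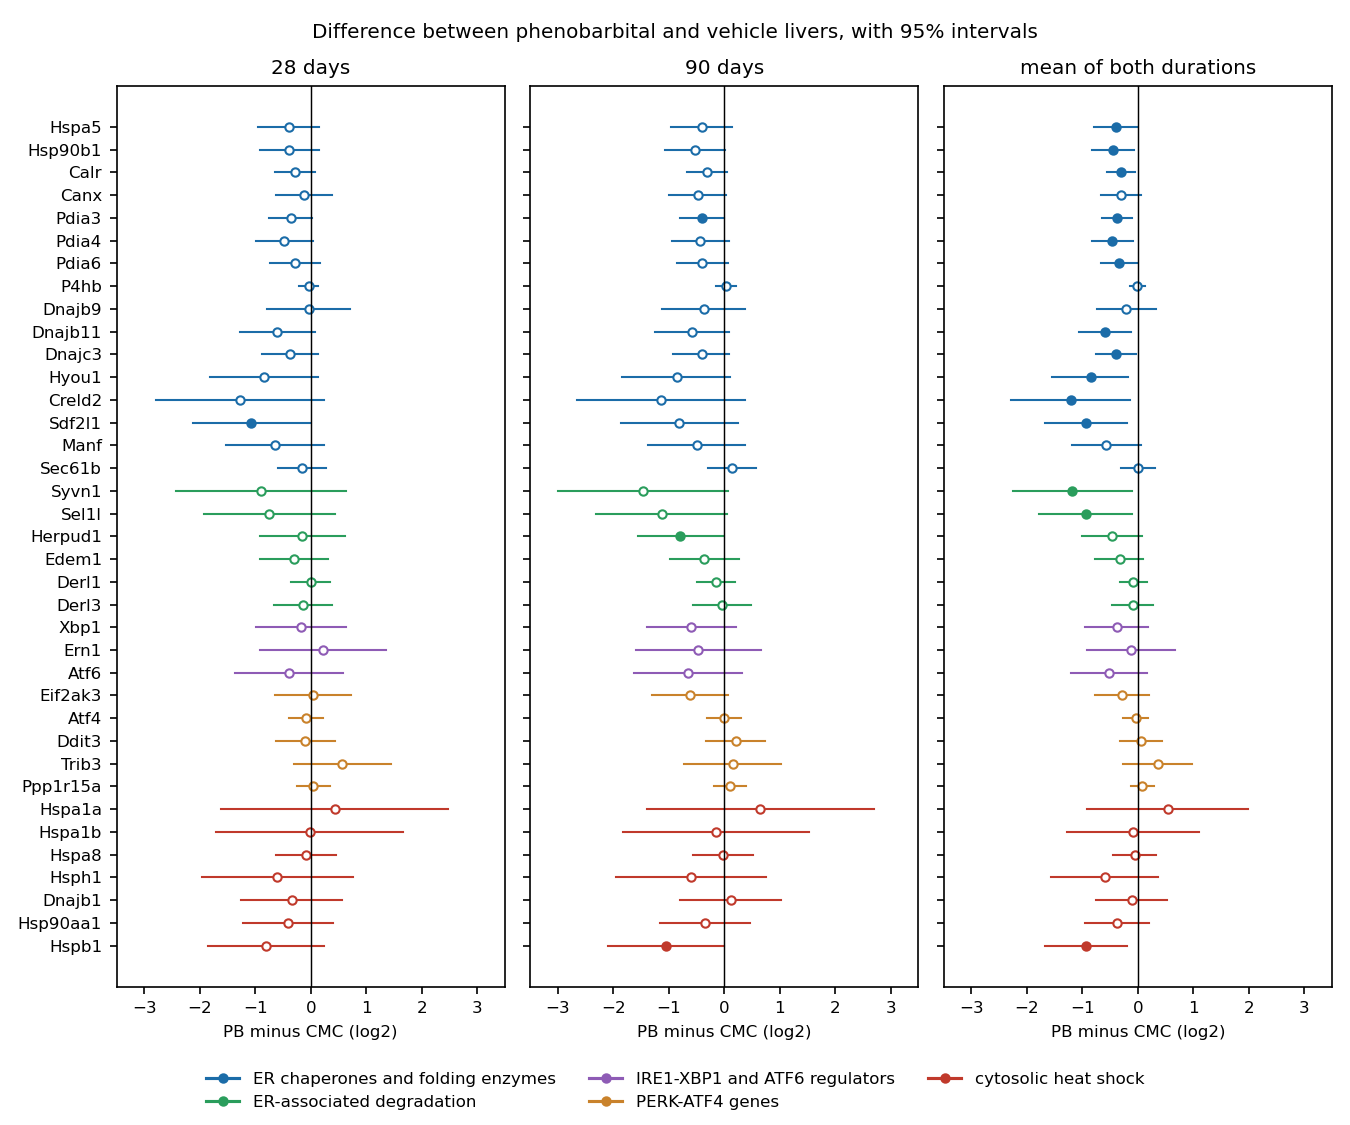
Difference between phenobarbital (PB) and vehicle (CMC) livers for each of the 37 genes on the log2 scale, at 28 days, at 90 days and averaged, with 95% intervals from limma; n = 5 mice per group, colours give the class, and filled points have an unadjusted p under 0.05. In the averaged panel 33 of 37 points lie below 0, and 14 are filled, 11 of them ER chaperones.

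Averaging both durations used all 10 treated and 10 vehicle livers. On that average 33 of 37 members were lower, with a median of -0.34, and 14 were lower and 0 higher at an unadjusted p under 0.05, against 2.37% and 4.24% of all genes. Again 0 of 37 passed the adjusted threshold, where 34 genes, 0.212%, did; the smallest adjusted p of a member was 0.622, for Pdia3. The 14 were 11 of the 16 ER chaperones, Syvn1 and Sel1l of the degradation genes, and Hspb1 of the heat shock genes, with none from the other classes. Without the 2 arrays that stood apart, 5 members were at that level (Pdia3, Dnajb11, Sdf2l1, Manf and Hspb1, of which Manf was not among the 14), against 2.24% of all genes, and the median was -0.21. The count was 9 without CMC replicate 2 at 28 days or CMC replicate 5 at 90 days, and 8 without CMC replicate 5 or PB replicate 5 at 28 days or CMC replicate 4 at 90 days. The count thus moved with single livers of both treatments, and the members in it are not independent of each other.

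Nearly all ER chaperones and folding enzymes had lower means in treated livers, and 0 of 16 were called. All 16 had a lower mean in PB livers at 28 days, with a median of -0.38, and 14 of 16 at 90 days, with a median of -0.42. The medians were -0.27 and -0.44, with 14 and 15 lower, when the 2 arrays apart were left out. Each member's own interval at 28 days included 0 apart from that of Sdf2l1, and at 90 days apart from that of Pdia3.

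Several of these genes carry the ER stress element (ERSE) just upstream of their start. The element was searched on both strands as CCAAT and CCACG separated by 9 bases of any kind in the RefSeq windows of 250 bases before to 50 after each start (GRCm38.p6), which 31 of the 37 members had. It was found for 9 of these 31, Calr, Canx, Creld2, Derl3, Dnajc3, Hsp90b1, Hspa5, Pdia6 and Syvn1, against 0.119% of all 32851 windows. The 200 bases before the start are shown 5′ to 3′ on the strand of the gene for Hspa5 (chr2:34771890-34772089, plus strand) and Creld2 (chr15:88819446-88819645, plus strand), because these 2 transcripts moved together most closely, as given below. Capitals mark the element, which reads in reverse complement in Creld2.
Hspa5: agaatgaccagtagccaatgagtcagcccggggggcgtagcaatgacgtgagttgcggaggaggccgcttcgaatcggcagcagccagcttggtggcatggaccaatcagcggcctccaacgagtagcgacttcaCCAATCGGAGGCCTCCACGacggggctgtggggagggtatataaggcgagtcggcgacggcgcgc
Creld2: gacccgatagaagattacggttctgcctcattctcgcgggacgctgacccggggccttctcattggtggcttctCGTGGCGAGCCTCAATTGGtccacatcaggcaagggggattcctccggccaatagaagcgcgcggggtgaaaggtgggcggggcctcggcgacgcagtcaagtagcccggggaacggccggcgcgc
A match is a description of the letters, not a measured binding site. The windows used did not include Hyou1, Hspa8, Hsp90aa1, Manf, Atf6 or Derl1.

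Hspa5 encodes BiP, the ER's main Hsp70 chaperone and the brake on its stress sensors. In CMC livers it stood at 13.06, 14.13, 14.04, 13.06 and 14.00 at 28 days and at 13.55, 13.07, 13.12, 14.40 and 14.22 at 90 days. In PB livers it stood at 13.75, 13.49, 13.17, 13.13 and 12.77 at 28 days and at 13.18, 13.41, 13.43, 13.11 and 13.19 at 90 days. At 28 days 3 of 5 CMC livers were at 14.00 or above and at 90 days 2 of 5, a level that no PB liver reached, while the other CMC livers lay in or near the range of the PB livers. The difference was -0.40 ± 0.26 at 28 days (95% interval -0.95 to 0.15, limma adjusted p = 1) and -0.41 ± 0.26 at 90 days (-0.96 to 0.14, adjusted p = 0.816). Leaving out CMC replicate 4 moved the 90-day value to -0.23. The other Hspa5 probe sets did not all share this sign: the range over its 3 probe sets was -0.48 to 0.02 at 28 days and -0.56 to 0.19 at 90 days.

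Creld2, an ER-resident protein with disulfide isomerase activity, followed the same livers over a wider range. In CMC livers it stood at 8.89, 11.50, 10.93, 8.39 and 10.97 at 28 days and at 9.57, 8.37, 8.81, 12.55 and 11.70 at 90 days. The PB values were 10.22, 8.99, 8.83, 8.68 and 7.58 at 28 days and 8.92, 9.75, 9.53, 8.55 and 8.57 at 90 days. Its highest values were in CMC replicates 2, 3 and 5 at 28 days and 4 and 5 at 90 days, the livers that were high in Hspa5. The mean was 10.13 ± 1.40 (SD) in CMC and 8.86 ± 0.94 in PB at 28 days, a difference of -1.27 ± 0.73 or 2.42-fold lower. At 90 days the means were 10.20 ± 1.83 and 9.06 ± 0.55, a difference of -1.14 ± 0.73, and neither passed (adjusted p = 1 and 0.816). The 90-day value was -0.55 without CMC replicate 4.

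Sdf2l1, a partner of BiP that keeps unfolded protein soluble, stood in CMC livers at 9.90, 10.46, 10.96, 8.63 and 10.53 at 28 days and at 9.80, 8.21, 8.92, 11.41 and 11.21 at 90 days. Under phenobarbital the livers gave 9.65, 8.95, 8.74, 8.77 and 9.01 at 28 days and 8.85, 9.41, 9.59, 8.84 and 8.81 at 90 days. At 28 days 4 of 5 CMC livers exceeded every PB liver, and CMC replicate 4 lay below them all. The difference was -1.07 ± 0.50 at 28 days (unadjusted p = 0.0453, adjusted p = 1) and -0.81 ± 0.50 at 90 days (adjusted p = 0.816), the latter -0.43 without CMC replicate 4 and -1.24 without CMC replicate 2.

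Hyou1, the large Hsp70-like chaperone that exchanges BiP's nucleotide, stood in CMC livers at 9.17, 10.74, 9.41, 9.10 and 10.34 at 28 days and at 10.28, 9.52, 9.20, 11.04 and 10.79 at 90 days. Treated livers held 9.63, 9.02, 9.39, 9.27 and 7.21 at 28 days and 9.22, 10.40, 8.53, 8.95 and 9.43 at 90 days. PB replicate 5 at 28 days, one of the arrays apart, was the lowest of all 20 livers. The difference was -0.85 ± 0.47 at 28 days, with a range of -0.85 to 0.04 over its 3 probe sets, and -0.86 ± 0.47 at 90 days (adjusted p = 1 and 0.816). The probe set at 0.04 had a low signal, on average 4.61 over all arrays, against 9.53 for the one used. Leaving out PB replicate 5 moved the 28-day difference to -0.42.

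Pdia4, a disulfide isomerase, stood in CMC livers at 10.20, 10.96, 10.66, 10.27 and 11.15 at 28 days and at 10.74, 10.50, 10.47, 11.55 and 11.23 at 90 days. PB livers gave 10.43, 10.35, 10.31, 10.29 and 9.47 at 28 days and 10.56, 10.87, 10.04, 10.33 and 10.52 at 90 days. The groups overlapped at both durations, with differences of -0.48 ± 0.25 and -0.44 ± 0.25 (adjusted p = 1 and 0.816). Its other probe set had the opposite sign, 0.22 and 0.13. That probe set averaged 4.09 over all arrays, against 10.55 for the one used. A mean of 4.09 lies within the arrays' cutoffs for a tested gene, 3.96 to 4.26, so its sign says little. The remaining isomerases and cochaperones lay between -0.60 and -0.04 at 28 days for Pdia3, Pdia6, P4hb, Dnajb9, Dnajb11 and Dnajc3, with Dnajb11 at -0.60 ± 0.32. Hsp90b1, the ER form of Hsp90, differed by -0.39 ± 0.26 and -0.52 ± 0.26, and the lectin chaperone Calr by -0.28 ± 0.17 and -0.32 ± 0.17. Manf, a secreted folding factor, differed by -0.64 ± 0.42 and -0.50 ± 0.42. P4hb, an abundant disulfide isomerase, was close to 0 with narrow intervals, -0.04 (-0.22 to 0.14) and 0.03 (-0.15 to 0.21). Sec61b, a subunit of the translocation channel, was at -0.15 ± 0.21 and 0.14 ± 0.21. Several of these values moved when the 2 arrays apart were left out. At 28 days Hsp90b1 was then at -0.15, Calr at -0.16, Pdia4 at -0.30, Pdia6 at -0.16, Dnajb11 at -0.38, Dnajc3 at -0.19, P4hb at 0.03, Dnajb9 at -0.12 and Sec61b at -0.28. At 90 days Dnajb9 was at -0.58 and Sec61b at 0.00.

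Canx, the membrane-bound lectin chaperone, and Xbp1 were the only members whose groups did not overlap at 90 days, where 1.07% of all genes tested did not. Canx stood at 12.60, 12.39, 12.44, 12.75 and 12.62 in CMC and at 12.29, 12.33, 11.46, 12.02 and 12.31 in PB livers, a difference of -0.48 ± 0.24 (adjusted p = 0.816). At 28 days the groups of all 37 members overlapped, against 0.542% of all genes that did not. Canx was -0.12 ± 0.24 at that time. It was 0.17 ± 0.14 at 28 days and -0.32 ± 0.14 at 90 days without the 2 arrays apart.

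**Figure D2:**
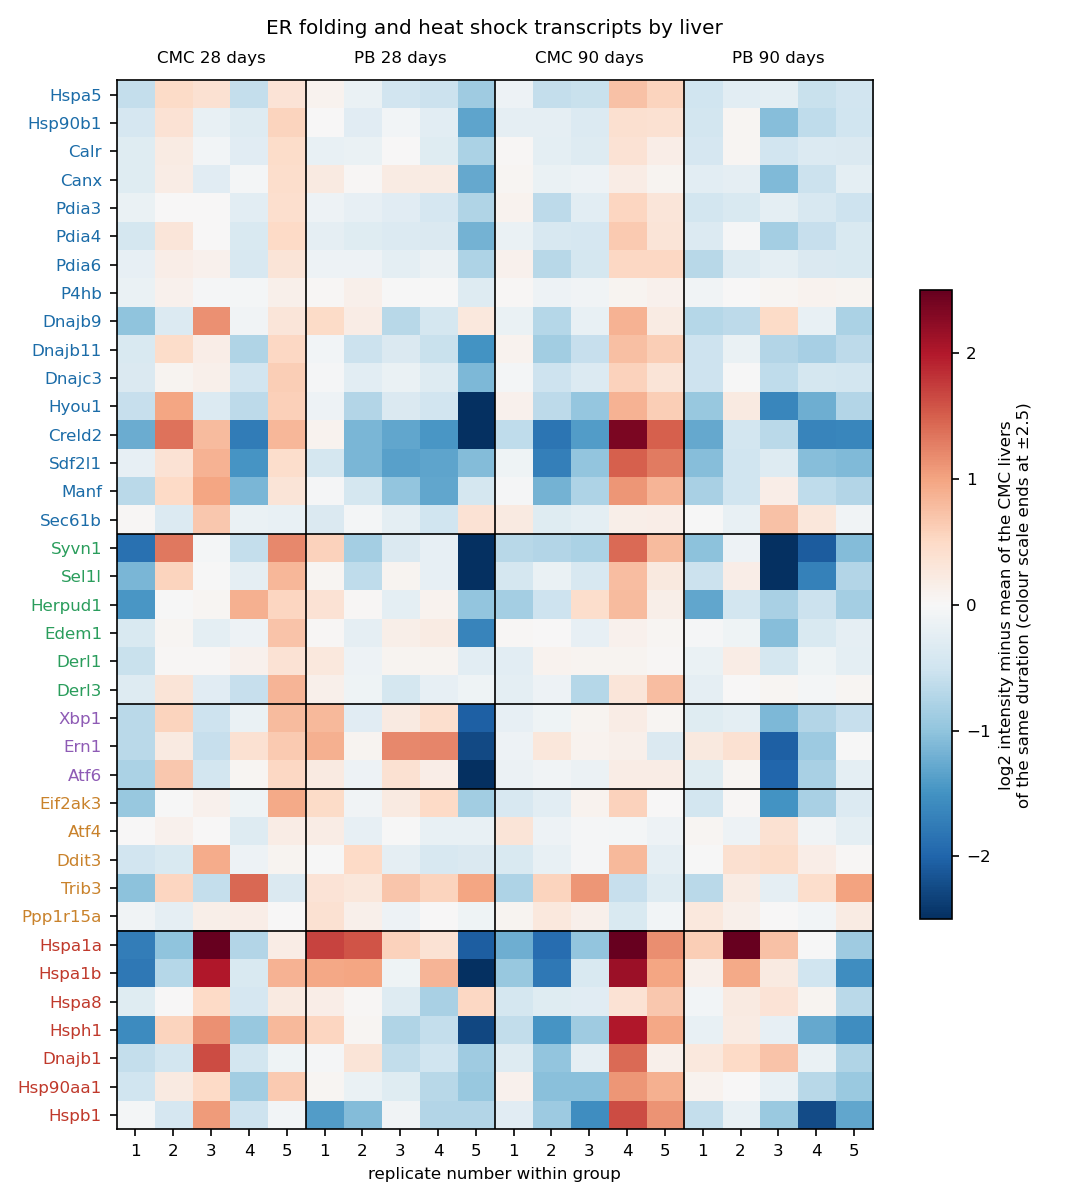
Log2 intensity of each of the 37 genes in each liver minus the mean of the 5 CMC livers of the same duration, with genes in rows coloured by class and the 4 groups in columns. CMC replicates 4 and 5 at 90 days are red in most chaperone and heat shock rows, and PB replicate 5 at 28 days is blue in most rows.

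The 6 degradation genes had a median of -0.23 at 28 days and -0.58 at 90 days, with 5 and 6 of 6 lower and 0 called. With the 2 arrays apart left out the 28-day median was -0.06, with 3 of 6 lower, and the 90-day median -0.44, with 6 of 6 lower. Syvn1 encodes the ubiquitin ligase Hrd1 at the centre of the degradation complex, and Sel1l encodes its adaptor. The ERSE lay close to the start of Syvn1 (chr19:6046376-6046575, plus strand) and, in reverse complement, further upstream of Derl3 (chr10:75893198-75893397, plus strand), and both are shown for the different places of the element. Herpud1 (chr8:94386229-94386428, plus strand) holds the related element ERSE-II, searched on both strands as ATTGG and CCACG separated by 1 base of any kind, which 2 of 31 members, Herpud1 and Dnajb11, and 0.0365% of all windows held. Capitals mark the element.
Syvn1: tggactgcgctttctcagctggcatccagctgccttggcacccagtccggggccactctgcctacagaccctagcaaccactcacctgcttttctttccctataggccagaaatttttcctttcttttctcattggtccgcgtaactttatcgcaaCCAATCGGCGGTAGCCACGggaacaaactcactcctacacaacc
Derl3: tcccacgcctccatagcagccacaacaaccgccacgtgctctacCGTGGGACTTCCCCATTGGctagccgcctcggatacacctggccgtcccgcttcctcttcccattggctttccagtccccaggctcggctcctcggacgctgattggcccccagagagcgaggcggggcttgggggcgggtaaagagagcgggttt
Herpud1: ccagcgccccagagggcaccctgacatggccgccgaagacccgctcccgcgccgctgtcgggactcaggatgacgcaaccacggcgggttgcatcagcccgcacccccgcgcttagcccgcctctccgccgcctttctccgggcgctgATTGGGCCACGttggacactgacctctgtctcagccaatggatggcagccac

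Syvn1 stood in CMC livers at 7.68, 10.86, 9.51, 8.95 and 10.75 at 28 days and at 9.69, 9.65, 9.58, 11.80 and 11.17 at 90 days. In PB livers it stood at 10.12, 8.70, 9.19, 9.35 and 5.94 and at 9.35, 10.26, 7.38, 8.29 and 9.30. The lowest values belonged to the 2 arrays apart, PB replicate 5 at 28 days and PB replicate 3 at 90 days, and the groups overlapped at both times. The difference was -0.89 ± 0.73 at 28 days and -1.46 ± 0.73 at 90 days, 2.75-fold lower (adjusted p = 1 and 0.816). Without the 2 arrays it was -0.21 ± 0.59 at 28 days and -1.08 ± 0.59 at 90 days. Sel1l behaved alike, at -0.75 ± 0.57 and -1.13 ± 0.57, and -0.18 ± 0.37 and -0.70 ± 0.37 without them.

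Herpud1, which recruits the ligase complex, stood in CMC livers at 10.09, 11.53, 11.59, 12.44 and 12.09 at 28 days and at 11.05, 11.38, 12.34, 12.69 and 12.06 at 90 days. The PB values were 11.90, 11.58, 11.31, 11.64 and 10.57 at 28 days and 10.60, 11.44, 11.10, 11.36 and 11.05 at 90 days. At 90 days 3 CMC livers exceeded all PB livers and the 2 others lay within their range. The difference was -0.15 ± 0.37 at 28 days and -0.79 ± 0.37 at 90 days (unadjusted p = 0.0452, adjusted p = 0.816), and it was 0.06 at 28 days without the 2 arrays apart.

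Derl3, a channel-like protein of the same complex, stood in CMC livers at 6.67, 7.31, 6.71, 6.41 and 7.84 at 28 days and at 6.65, 6.78, 6.19, 7.21 and 7.67 at 90 days. Under phenobarbital the livers gave 7.11, 6.88, 6.55, 6.79 and 6.88 at 28 days and 6.67, 6.90, 6.95, 6.85 and 6.94 at 90 days. The PB livers lay inside the range of the CMC livers at both durations. The difference was -0.14 ± 0.25 and -0.04 ± 0.25, the second of which became 0.05 after centring on the 75th percentile. Edem1, a mannosidase-like lectin, was at -0.30 ± 0.30 and -0.36 ± 0.30, and Derl1 at 0.00 ± 0.17 and -0.15 ± 0.17. They were at 0.04 and -0.19, and at 0.07 and -0.08, without the 2 arrays apart.

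The regulators of the IRE1 and ATF6 branches had medians of -0.17 and -0.60, with 2 and 3 of 3 lower and 0 called. Leaving out the 2 arrays apart gave a 28-day median of 0.29, with 0 of 3 lower, and a 90-day median of -0.33. Xbp1 encodes the factor that IRE1 activates by splicing; splicing itself was not read from these arrays. Xbp1 stood in CMC livers at 11.57, 12.81, 11.73, 12.07 and 13.04 at 28 days and at 12.63, 12.73, 12.90, 13.02 and 12.88 at 90 days. Treated livers held 13.06, 11.96, 12.46, 12.66 and 10.21 at 28 days and 12.53, 12.58, 11.71, 12.10 and 12.25 at 90 days. At 90 days all 5 PB livers lay below all 5 CMC livers, a difference of -0.60 ± 0.39 (adjusted p = 0.816). At 28 days the difference was -0.17 ± 0.39, and it was 0.29 without the 2 arrays apart, and 0.29 as well without PB replicate 5 alone.

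Ern1, which encodes IRE1 itself, stood in CMC livers at 9.20, 10.10, 9.31, 10.25 and 10.53 at 28 days and at 10.46, 10.87, 10.68, 10.71 and 10.24 at 90 days. PB livers gave 10.76, 9.95, 11.07, 11.10 and 7.63 at 28 days and 10.83, 10.98, 8.56, 9.68 and 10.59 at 90 days. At 28 days 3 PB livers exceeded all CMC livers while PB replicate 5 lay below all of them. The difference was 0.22 ± 0.54 at 28 days and -0.47 ± 0.54 at 90 days, its 5 probe sets ranged from -0.25 to 0.22 and from -0.47 to 0.10, and the change between durations was -0.69 ± 0.76 (adjusted p = 1). Without the 2 arrays it was 0.84 ± 0.30 at 28 days (unadjusted p = 0.0119, adjusted p = 0.973) and -0.07 ± 0.30 at 90 days, and with the first component as a covariate the 90-day value was 0.19. Atf6 was at -0.39 ± 0.47 and -0.66 ± 0.47, and at 0.16 ± 0.25 and -0.33 ± 0.25 without them.

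The PERK-ATF4 genes lay on both sides of 0. Their median was 0.05 at 28 days and 0.11 at 90 days, 2 of 5 were lower at each time, and 0 were called or reached an unadjusted p under 0.05. The medians were 0.10 and 0.14 without the 2 arrays apart. Eif2ak3, which encodes PERK, was at 0.05 ± 0.33 and -0.62 ± 0.33, or 0.28 and -0.40 without them, and Ppp1r15a, which restores translation, at 0.05 ± 0.14 and 0.11 ± 0.14. Atf4, the factor of the branch, is controlled largely at translation, which these arrays do not measure.

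Atf4 stood in CMC livers at 10.53, 10.63, 10.52, 10.20 and 10.70 at 28 days and at 10.85, 10.39, 10.49, 10.48 and 10.40 at 90 days. In PB livers it stood at 10.71, 10.32, 10.50, 10.33 and 10.33 and at 10.58, 10.39, 10.90, 10.44 and 10.28. It varied little in any group, and the differences were -0.08 (95% interval -0.39 to 0.23) and 0.00 (-0.31 to 0.31). Its target Ddit3, the factor CHOP, stood in CMC livers at 7.14, 7.22, 8.53, 7.48 and 7.68 at 28 days and at 7.10, 7.29, 7.45, 8.29 and 7.26 at 90 days. In PB livers Ddit3 stood at 7.60, 8.11, 7.39, 7.21 and 7.25 and at 7.47, 7.88, 7.93, 7.64 and 7.51. The groups overlapped, with differences of -0.10 ± 0.26 and 0.21 ± 0.26.

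Trib3, a pseudokinase raised by ATF4 and CHOP, stood in CMC livers at 6.60, 8.15, 7.03, 9.05 and 7.25 at 28 days and at 6.83, 8.16, 8.71, 7.03 and 7.27 at 90 days. The PB values were 7.96, 7.89, 8.31, 8.17 and 8.61 at 28 days and 6.92, 7.80, 7.38, 8.03 and 8.60 at 90 days. At 28 days the PB livers lay close together in the upper part of the CMC range. The difference was 0.57 ± 0.42 at 28 days and 0.15 ± 0.42 at 90 days (adjusted p = 1 and 0.917), and the second turned to -0.06 without PB replicate 5 and to -0.04 without CMC replicate 1 at that time. Herpud1 and Trib3 were the members with the ATF4 composite element TGATGNAA in their window, 2 of 31 or 6.45%, against 3.97% of all windows. The match of Trib3 lay 14 to 21 bases after the start.

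**Figure D3:**
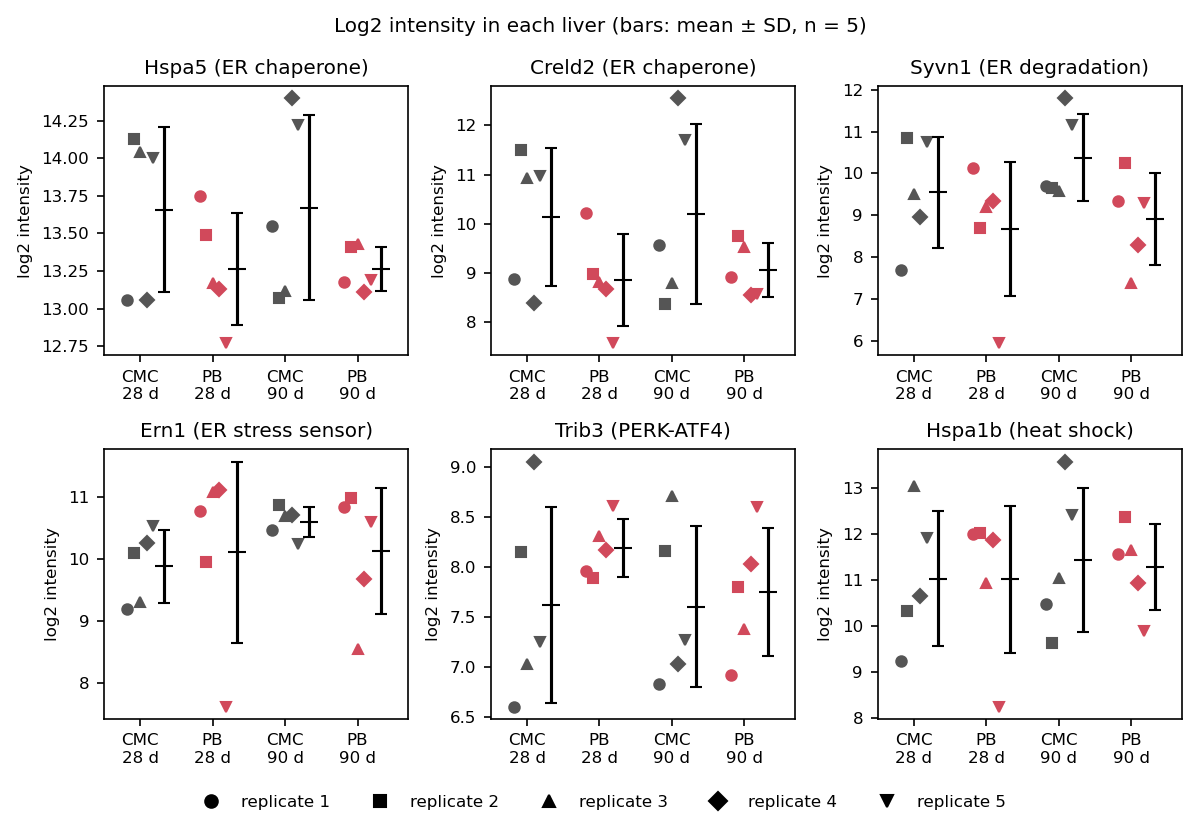
Log2 intensity in each of the 5 livers of each group for Hspa5, Creld2, Syvn1, Ern1, Trib3 and Hspa1b; marker shapes give the replicate number, grey is vehicle (CMC), red is phenobarbital (PB), and black bars give mean ± SD. The vertical axes start at different values, and the CMC points of Hspa5 and Creld2 reach above all PB points while their lower end overlaps them.

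The cytosolic heat shock genes had medians of -0.34 and -0.15, with 6 and 5 of 7 lower and 0 called. They were -0.21 and -0.24, with 5 and 6 lower, without the 2 arrays apart. Hspa1a and Hspa1b encode nearly identical inducible Hsp70 proteins, so their probe sets may read both transcripts, and their separate levels are uncertain. The 200 bases before their starts (Hspa1a, chr17:34972157-34972356, minus strand; Hspa1b, chr17:34959239-34959438, minus strand) were identical at 199 of 200 positions and are shown because of this likeness. Capitals mark the inverted heat shock pair searched as GAANNTTC, which reads the same on both strands and was held by 4 of 31 members, Hspa1a, Hspa1b, Hspb1 and Hsph1, and by 7.86% of all windows.
Hspa1a: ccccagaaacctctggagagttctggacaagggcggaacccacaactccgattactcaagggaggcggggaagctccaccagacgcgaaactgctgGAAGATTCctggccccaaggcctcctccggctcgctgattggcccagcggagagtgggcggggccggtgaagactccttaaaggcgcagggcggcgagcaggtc
Hspa1b: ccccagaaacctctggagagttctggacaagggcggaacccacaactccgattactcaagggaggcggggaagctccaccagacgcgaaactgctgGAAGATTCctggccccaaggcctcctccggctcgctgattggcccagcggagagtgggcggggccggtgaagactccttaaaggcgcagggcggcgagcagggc
The longer form, the same pair followed after 2 further bases by GAA, was found among the members in Hsph1 and in 0.603% of all windows.

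Hspa1b stood in CMC livers at 9.24, 10.32, 13.04, 10.65 and 11.90 at 28 days and at 10.48, 9.64, 11.04, 13.57 and 12.42 at 90 days. Under phenobarbital the livers gave 11.99, 12.01, 10.93, 11.87 and 8.25 at 28 days and 11.56, 12.37, 11.66, 10.94 and 9.88 at 90 days. The highest livers were CMC replicate 3 at 28 days and CMC replicate 4 at 90 days, and the groups overlapped throughout. The differences were -0.02 ± 0.81 and -0.15 ± 0.81, and the first was 0.67 without the 2 arrays apart. The 95% intervals were wide, -1.70 to 1.66 and -1.83 to 1.53.

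Hspa1a stood in CMC livers at 5.40, 6.13, 10.39, 6.40 and 7.32 at 28 days and at 5.92, 5.24, 6.16, 10.08 and 8.31 at 90 days. Treated livers held 8.81, 8.71, 7.71, 7.49 and 5.06 at 28 days and 7.75, 9.97, 7.87, 7.13 and 6.25 at 90 days. Its highest CMC livers were the same as those of Hspa1b, and its SD of 1.95 in the 28-day CMC group exceeded that of the other members. The differences were 0.43 ± 0.98 and 0.65 ± 0.98 (adjusted p = 1 and 0.851), and the first was 1.05 without the 2 arrays apart.

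Hsph1, the cytosolic Hsp110 that works with Hsp70, stood in CMC livers at 8.10, 10.22, 10.82, 8.73 and 10.49 at 28 days and at 9.50, 8.65, 9.23, 12.12 and 11.09 at 90 days. PB livers gave 10.21, 9.73, 8.92, 9.08 and 7.39 at 28 days and 9.94, 10.32, 9.92, 8.83 and 8.57 at 90 days. CMC replicates 2, 3 and 5 at 28 days and 4 and 5 at 90 days were again the high ones. The difference was -0.60 ± 0.65 at both durations (adjusted p = 1 and 0.824). It was -0.18 at 28 days without PB replicate 5, one of the arrays apart, and -0.10 at 90 days without CMC replicate 4.

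Hspa8, the constitutive Hsp70, stood in CMC livers at 12.56, 12.89, 13.37, 12.45 and 13.09 at 28 days and at 12.34, 12.48, 12.49, 13.13 and 13.45 at 90 days. In PB livers it stood at 13.04, 12.91, 12.54, 12.06 and 13.39 and at 12.70, 13.01, 13.12, 12.85 and 12.10. The groups overlapped, with differences of -0.08 ± 0.26 and -0.02 ± 0.26. The second was 0.07 after centring on the 75th percentile. The 4 probe sets of Hspa8 ranged from -1.09 to -0.06 at 28 days and from -0.13 to 0.06 at 90 days. The probe set at -1.09 averaged 5.95 over all arrays, against 12.80 for the one used. The others lay from -0.09 to -0.06 at 28 days. Hsp90aa1, the inducible cytosolic Hsp90, was at -0.41 ± 0.39 and -0.34 ± 0.39, and the cochaperone Dnajb1 at -0.34 ± 0.43 and 0.12 ± 0.43. Hspa8 was at -0.23 and -0.11, and Dnajb1 at -0.21 and -0.04, without the 2 arrays apart.

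Hspb1 encodes the small heat shock protein Hsp27, which holds unfolded protein without ATP. Its difference was -0.81 ± 0.50 at 28 days and -1.05 ± 0.50 at 90 days (unadjusted p = 0.0494, adjusted p = 0.816), and both of its probe sets were negative, -0.99 to -0.81 and -1.32 to -1.05. In CMC livers it stood at 8.42, 8.06, 9.53, 7.95 and 8.40 at 28 days and at 9.38, 8.75, 8.11, 11.30 and 10.78 at 90 days. The PB values were 7.08, 7.39, 8.38, 7.74 and 7.74 at 28 days and 9.07, 9.48, 8.73, 7.43 and 8.36 at 90 days. CMC replicates 4 and 5 at 90 days were the 2 highest of all livers. Hspb1 was also the one member at an unadjusted p under 0.05 between the vehicle groups, higher by 1.19 ± 0.50 at 90 days than at 28 days (limma, adjusted p = 0.636).

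The duration of treatment was compared directly. The difference of the PB effect between 90 and 28 days ranged from -0.69 (Ern1) to 0.46 (Dnajb1), with a median of -0.03; 0 of 37 members were called against 0% of all genes (limma, smallest adjusted p = 1). At an unadjusted p under 0.05 there were 0 members, against 0.448% of all genes in the lower and 0.928% in the higher direction. Between the vehicle groups 27 of 37 members were higher at 90 days, with a median of 0.10, and 0 were called, again against 0%. At an unadjusted p under 0.05 Hspb1 was higher and 0 members lower, against 2.03% and 3.66% of all genes. Age and duration of dosing cannot be told apart in that comparison.

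Livers of one group also differed among themselves, and many members followed Hspa5 in this. Group means were subtracted from each gene, and Pearson's r and Spearman's rho with Hspa5 were computed over the 20 livers for the other 36 members, with permutations within groups (100000, two-sided, unadjusted, smallest possible p = 1e-05). Creld2 was the closest of all 16053 other genes, with r = 0.98 (p = 1e-05) and rho = 0.97 (p = 1e-05), and r = 0.97 without the 2 livers farthest in Hspa5, CMC replicates 4 and 5 at 90 days. Within vehicle livers r was 0.99 and within treated livers 0.94 (n = 10 each). Most other members were less even. The median r of chaperones was 0.88 in vehicle and 0.63 in treated livers, with Manf at 0.97 and 0.53. For heat shock genes it was 0.78 and 0.73, with Hspa8 at 0.85 and 0.10. For degradation genes the median was 0.62 and 0.48, for regulators 0.48 in both, and for PERK-ATF4 genes 0.29 and 0.50. These differences were not tested.

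Calls on these relations came from a limma slope on Hspa5 fitted to all genes with group means in the model. A total of 12 of 36 members had a positive slope at an adjusted p under 0.05 and 0 a negative one, against 0.28% and 0.0748% of all genes. They were 8 of 15 chaperones (Pdia3, Pdia4, Pdia6, Dnajb11, Dnajc3, Creld2, Sdf2l1 and Manf) and 4 of 7 heat shock genes (Hspa1a, Hspa1b, Hsph1 and Hsp90aa1). None of the 6 degradation genes, 3 regulators or 5 PERK-ATF4 genes was among them. The threshold did not part the classes cleanly. Syvn1 had r = 0.72 (slope adjusted p = 0.0619) and Derl3 r = 0.71 (slope adjusted p = 0.115). The called Hspa1a and Hspa1b had r = 0.75 (slope adjusted p = 0.029 each). The other degradation genes had r from 0.37 (Edem1 and Derl1) to 0.51 (Sel1l). The probe sets of Hspa1a and Hspa1b may read both transcripts, so their 2 slopes may not be separate. The count was 7 without CMC replicate 2 or without CMC replicate 4 at 90 days, and 18 without the 2 arrays apart. Among the 50 genes closest to Hspa5 in r there were 10 members.

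Cytosolic heat shock genes were among those that followed Hspa5. Hsph1 had r = 0.93 (p = 2e-05; rho = 0.91, p = 6e-05; slope adjusted p = 2.58e-05) and was the second closest gene, and Hsp90aa1 had r = 0.91 (p = 9e-05; rho = 0.89, p = 0.00016; slope adjusted p = 0.00022). Without the 2 livers farthest in Hspa5 these were 0.89 and 0.84. Hspa1a and Hspa1b each had r = 0.75, which became 0.63 and 0.65. Hspb1 had r = 0.57 (p = 0.0447; rho = 0.49, p = 0.0784), which was 0.19 without those 2 livers and so rested on them. The class medians of r were 0.83 for chaperones, 0.75 for heat shock genes, 0.48 for degradation genes, 0.39 for the regulators and 0.34 for PERK-ATF4 genes, against 0.00 for all genes.

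The closest chaperones besides Creld2 were Dnajb11 (r = 0.91, p = 7e-05; rho = 0.89, p = 0.00013), Pdia6 (r = 0.89, p = 4e-05; rho = 0.87, p = 0.00021), Manf (r = 0.88, p = 0.00024; rho = 0.90, p = 8e-05) and Sdf2l1 (r = 0.88, p = 6e-05; rho = 0.86, p = 0.00015). Without the farthest 2 livers their r was 0.86, 0.81, 0.81 and 0.78. Of the genes with lower r, Trib3 had -0.43 (permutation p = 0.123) and Ppp1r15a -0.26 (permutation p = 0.364), the 2 members with a negative value. Ern1 and Sec61b each had 0.16. Xbp1 had 0.46 (p = 0.0364; rho = 0.41, p = 0.0795), and Atf6 0.39 (p = 0.047; rho = 0.38, p = 0.0628); neither slope passed.

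Of genes outside the 37, the closest to Hspa5 over the 20 livers were Dnaja1 (r = 0.92), a cytosolic Hsp40 cochaperone, Ddx50 (0.90), Nme6 (0.90), Ube2g2 (0.89), a ubiquitin-conjugating enzyme of ER-associated degradation, and Tmed3 (0.89), a cargo adaptor of the secretory pathway. These 5 were picked by the size of r, so the values are a description.

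**Figure D4:**
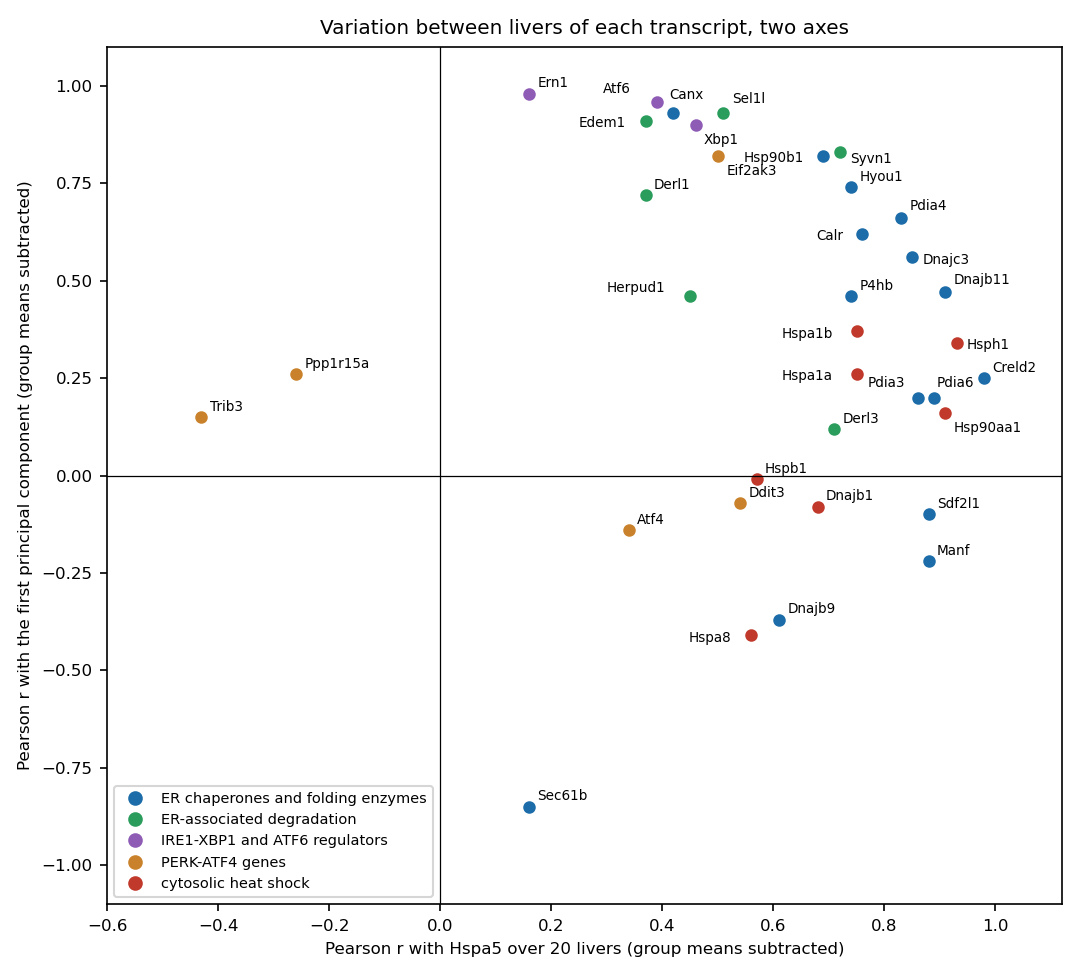
Pearson r of 36 genes with Hspa5 (horizontal) and with the first principal component of all genes (vertical) over 20 livers, both after subtracting group means, coloured by class; Hspa5 itself is not drawn. Chaperones such as Creld2 and heat shock genes lie to the right, and Ern1, Atf6, Xbp1, Sel1l, Edem1 and Canx lie at the top.

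Members of several classes also followed the axis on which the 2 arrays stood apart, as did a large share of all genes. The first component was computed from all genes tested, the members included. The p-values below therefore describe how genes lie on it and are not an independent test. The slope on the first component was positive at an adjusted p under 0.05 for 3 of 3 regulators, 4 of 6 degradation genes, 7 of 16 chaperones, 1 of 5 PERK-ATF4 genes and 0 of 7 heat shock genes. Of the 7 chaperones, Pdia4, Dnajb11 and Dnajc3 had also passed on Hspa5. With the first component, r was 0.98 for Ern1, 0.96 for Atf6, 0.93 for Sel1l and Canx, 0.91 for Edem1 and 0.90 for Xbp1 over the 20 livers (permutation p from 1e-05 to 0.00012, rho from 0.85 to 0.95). Without PB replicate 5 at 28 days and PB replicate 3 at 90 days these were 0.92, 0.89, 0.78, 0.77, 0.71 and 0.83, and among the 10 vehicle livers alone 0.92, 0.89, 0.67, 0.75, 0.70 and 0.91. Sec61b ran the other way, with r = -0.85 (p = 2e-05; rho = -0.82, p = 2e-05). Among the other chaperones r ran from 0.82 for Hsp90b1, 0.74 for Hyou1, 0.66 for Pdia4 and 0.62 for Calr to 0.25 for Creld2, 0.23 for Hspa5, -0.22 for Manf and -0.37 for Dnajb9. In all, 15 of the 37 members passed in the positive and 1 in the negative direction. Of all genes, 27.4% passed in the positive and 33.2% in the negative direction. Over both directions together the members passed less often than all genes. Hepatocyte markers had a median r of 0.83 with this component, Actb 0.94, Hprt -0.91 and Kupffer cell markers a median of -0.68; their part in the differences above was not tested.

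The spread between livers was wider under vehicle than under phenobarbital for most members. The SD was larger among CMC than among PB livers for 24 of 37 members at 28 days, 64.9% against 39.6% of all genes, and for 25 of 37 at 90 days, 67.6% against 26.2%. For Hspa5 it was 0.55 against 0.37 at 28 days and 0.62 against 0.14 at 90 days, and for Sdf2l1 0.90 against 0.37 and 1.40 against 0.37. All 7 heat shock genes had the larger SD in CMC livers at 90 days, among them Hsp90aa1 with 1.03 against 0.45. Ern1, Atf6 and Xbp1 had the smaller SD in CMC livers at both times, for Ern1 0.59 against 1.46 and 0.25 against 1.01. Of the 6 degradation genes, 3 at 28 days and 2 at 90 days had the larger SD in CMC livers. These counts were 6 and 3 without the 2 arrays apart. Without the 2 arrays apart the shares were 94.6% of members against 76.4% of all genes at 28 days and 81.1% against 35.8% at 90 days. All 3 regulators then had the larger SD in CMC livers at 28 days, with a median of 0.63 against 0.46, and 0 of 3 at 90 days, with 0.18 against 0.36. Leaving out the array farthest on the first component from each PB group, and none from a CMC group, can by itself lower the SD under phenobarbital. With 5 livers per group no test of these variances was made.

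**Figure D5:**
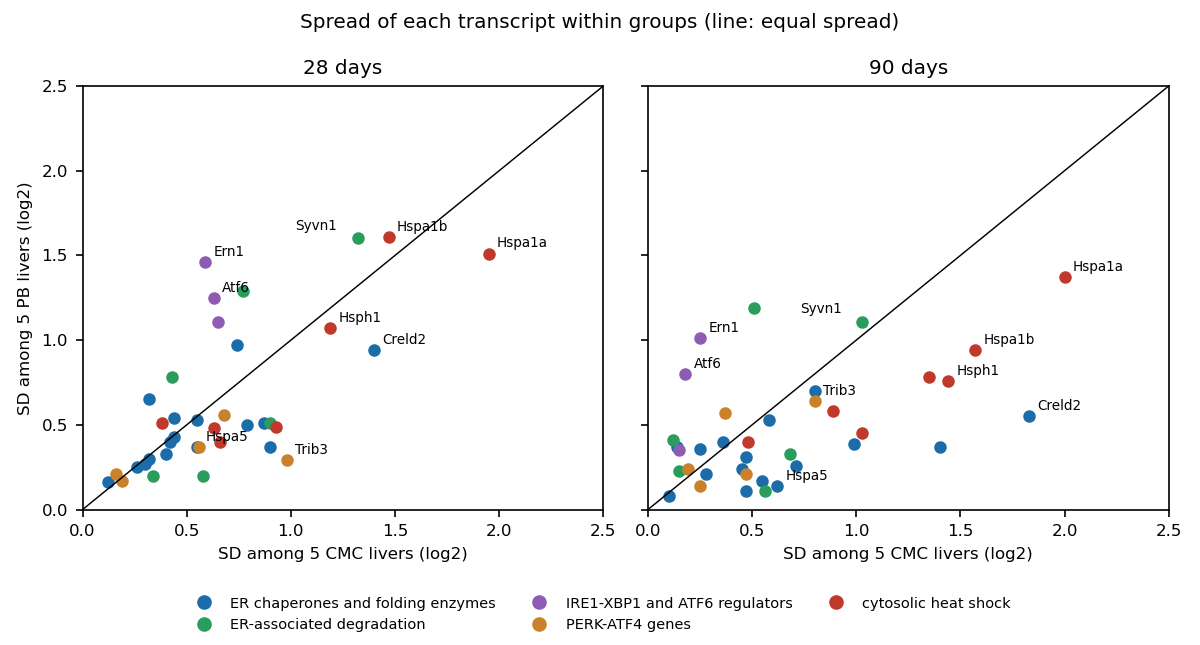
SD of log2 intensity among the 5 CMC livers (horizontal) and the 5 PB livers (vertical) for each of the 37 genes at 28 and at 90 days, coloured by class, with a line of equal spread. At 90 days 25 of 37 genes lie below the line, the 7 heat shock genes among them, while Ern1 and Atf6 lie above it.

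The wider pathways gave no call either. Of 44 other tested genes of ER folding, glycosylation and translocation, 41 were lower at 28 days (median -0.26, 4 at an unadjusted p under 0.05). At 90 days 32 were lower (median -0.17, 0 at that level). Over all genes tested, 50.4% and 43.8% were lower, and 1.03% and 1.38% were lower at an unadjusted p under 0.05. The list had a median r of 0.72 with the first component, on which the 2 arrays stood apart. The part of that axis was not tested, and counts without the 2 arrays are not given for these wider lists. Nucb2, a calcium-binding secretory protein, was at -1.23 ± 0.40 at 28 days (limma, adjusted p = 1), and Dnajc10, an ER reductase, at -0.36 ± 0.13. Rpn1, a subunit of the oligosaccharyltransferase, averaged -0.44 ± 0.15 over both durations (limma, adjusted p = 0.589).

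Of 19 other degradation genes 16 and 12 were lower (medians -0.11 and -0.10), and of 11 other regulators 9 and 7 (medians -0.15 and -0.21), with none at an unadjusted p under 0.05. Of 30 other PERK-ATF4 and integrated stress genes 24 and 16 were lower (medians -0.13 and -0.04). Sesn2, a stress-induced regulator of nutrient signalling, was at 0.23 ± 0.10 at 28 days (limma, adjusted p = 1), and Asns, the asparagine synthetase raised by ATF4, was at -0.59 ± 0.31. Of 26 other cytosolic heat shock and cochaperone genes 23 and 21 were lower (medians -0.22 and -0.17), with Dnaja2 at -0.52 ± 0.25 at 90 days (limma, adjusted p = 0.816). The cochaperone Bag3 averaged -0.82 ± 0.37 over both durations (limma, adjusted p = 0.72). The 8 mitochondrial chaperones, which answer to another compartment, had medians of -0.13 and -0.14, with 8 and 5 lower. These counts stand beside 50.4% and 43.8% of all genes that were lower. With the first component the median r was 0.64 for the other degradation genes, 0.7 for the other regulators and 0.22 for the other PERK-ATF4 genes. It was 0.44 for the other heat shock genes and 0.8 for the mitochondrial chaperones, and the part of that axis was not tested.

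Plasma cells and the exocrine pancreas are also rich in ER chaperones, so their markers were read in the same livers. The log2 of the summed signal of the 10 plasma and B cell markers measured of 12 listed was 11.19 to 11.91 in CMC and 11.13 to 11.43 in PB livers at 28 days, and 11.46 to 11.89 and 11.26 to 11.55 at 90 days. The sum of the 8 pancreatic markers measured of 12 listed was 11.19 to 11.96 and 11.29 to 11.79 at 28 days, and 11.12 to 11.66 and 11.30 to 11.91 at 90 days. These sums are carried by Sdc1, which other epithelial cells also express, and by Cela1, so they say little of either cell type. Of the more specific plasma cell genes, Jchain spanned 5.21 to 6.06 in CMC and 4.84 to 6.36 in PB livers at 28 days and 5.03 to 6.16 and 5.17 to 6.71 at 90 days. Mzb1 spanned 5.82 to 7.04 and 6.22 to 7.59 at 28 days and 6.12 to 6.36 and 6.05 to 6.83 at 90 days. In each list 1 marker lay at or below the 25th percentile on every array. The median r of the 9 and 7 tested markers of these lists with Hspa5 was -0.19 and 0.04, with ranges of -0.46 to 0.18 and -0.39 to 0.16. The summed signal of the 9 neutrophil markers was 8.30 to 8.94 in CMC and 9.25 to 12.86 in PB livers at 28 days and 7.96 to 8.33 and 8.21 to 13.24 at 90 days, with S100a8, a calcium-binding protein abundant in neutrophils, higher by 5.06 and 6.28 (limma adjusted p = 0.248 and 0.0163) and the other 8 between -0.15 and 0.31; their median r with Hspa5 was 0.04, and their part in the members' differences was not tested. Immediate early genes (8, median r 0.06, from -0.62 to 0.55) and clock and feeding genes (16, median r 0.04, from -0.60 for Igfbp1 to 0.57 for Per2) held single genes at moderate r with Hspa5. The labels give neither the time of day nor the feeding state at necropsy, and their part was not tested.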

How the data were processed

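RNA from 20 livers was hybridised to 1 array each. The deposited values are log2 intensities. RMA is the one tool listed in the submitters' processing notes, with no version. Of 45037 probe sets, 34945 had 1 gene symbol in the platform annotation of 2016, 932 several and 9160 none; probe sets with several or no symbol were not named. A gene counted as tested if it exceeded its array's 25th percentile (3.96 to 4.26) on at least 5 arrays, which left 16054 and removed 2139.

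limma 3.58.1 in R 4.3.3 was fitted to all tested genes with 1 mean per group and an intensity trend (16 residual degrees of freedom), and p-values were adjusted over all genes by Benjamini-Hochberg at 0.05. Relations with Hspa5 and with the first component used Pearson and Spearman coefficients on values with group means subtracted; their calls came from limma slopes adjusted over all genes, in place of the planned adjustment over the members. Promoter windows came from RefSeq (GRCm38.p6). Scripts were tested on simulated data. Figures used matplotlib 3.10.9 in Python 3.11.15.

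The members, pathway lists and marker lists were chosen with earlier results of these data known. Values per liver were given for 17 preset members and for members past the threshold; Canx and Hspb1 were added after their values were seen. From the other lists, up to 2 genes per list and comparison with the smallest p were eligible. The labels name no batch. Alternatives covered scaling, filters, probe set choice, array weights, the 2 arrays apart, the first component as a covariate, the replicate number as a block and leaving out each liver. The number of arrays limits the precision.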

Additional observations from a re-analysis of the deposited data

Results flagged for a closer look

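In 72 groups of 5 livers, 6 held a liver far from the others by Dixon's criterion, which chance meets in about 1 of 20 groups. PB replicate 5 at 28 days was such a liver for Hyou1 (7.21, next 9.02), for Pdia4 (9.47, next 10.29), for Hspa1b (8.25, next 10.93) and for the first component score (-107.9, next -17.3). CMC replicate 1 at 90 days was high in Atf4 (10.85, next 10.49), and CMC replicate 4 at 90 days in Ddit3 (8.29, next 7.45).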

How the results depend on the processing

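In every alternative setting, and with each of the 20 livers left out in turn, the count of members past the adjusted threshold was 0 in all 5 comparisons that the setting allowed, and the lowest adjusted p of a named member was 0.31 (Ern1 at 28 days with the first component as covariate). The counts at an unadjusted p under 0.05 moved. At 28 days, 1 as reported, the count was 2 with only the compared groups, 4 with the first component as covariate, and 0 with array weights, 75th percentile centring, cyclic loess, the replicate block or without the 2 arrays apart. At 90 days, 3 as reported, it was 8 with only the compared groups, 17 with array weights, 0 with percentile centring, and 1 with the replicate block or the covariate. On the average, 14 as reported, it was 9 with the replicate block and 5 without the 2 arrays. Replicate numbers are not stated to pair the livers. Between livers of the same number, with group means subtracted, r ran from -0.69 to 0.61 (30 pairs, 9 over 0.1). The first component held 55.6% of the variance, so these values cannot show whether the numbers pair livers. Leaving out 1 liver gave 0 to 6 at 28 days, 0 to 9 at 90 days, 8 to 16 on the average and 7 to 16 slopes on Hspa5. The cause of these moves was not tested.

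Differences of named members turned sign 18 times over these settings: with the mean of probe sets Ern1 at 28 days -0.05 and Atf4 at 90 days 0.09; without cross-hybridising probe sets Hspa8 at 90 days 0.06; with array weights at 28 days Xbp1 0.21 and Hspa1b 0.67; with percentile centring Hspa1b at 28 days 0.03 and at 90 days Derl3 0.05, Atf4 0.09 and Hspa8 0.07; with loess Hspa1b at 28 days 0.01 and Atf4 at 90 days 0.01. Without the 2 arrays, at 28 days, Herpud1 was 0.06, Xbp1 0.29 and Hspa1b 0.67. With the covariate Xbp1 was 0.01 and Hspa1b 0.13 at 28 days, and Ern1 0.19 (-0.47 as reported) and Hspa1b 0.23 at 90 days. Leaving out 1 liver turned these at 28 days: Hspa1a (0.00 to 1.24), Ddit3 (-0.25 to 0.13), Hspa8 (-0.23 to 0.10), Hspa1b (-0.47 to 0.67), Herpud1 (-0.51 to 0.07), Derl3 (-0.29 to 0.07), Xbp1 (-0.42 to 0.29) and Ern1 (-0.03 to 0.84). At 90 days it turned Atf4 (-0.10 to 0.08), Trib3 (-0.06 to 0.43), Derl3 (-0.22 to 0.15), Hspa8 (-0.13 to 0.14) and Hspa1b (-0.60 to 0.38).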
